A study of Homo sapiens with 5 samples.

Results

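Terminator peaks of protein-coding genes are the DRIP-seq peaks that the deposited annotation places at the end of a coding gene. They were chosen by 3 conditions on the authors' annotation: the location class includes the terminator, it does not include a promoter, and the assigned gene is of the type protein coding. These conditions were met by 1752 of 80323 peaks, which were assigned to 1268 genes. Control 1 had 606 of them and control 2 had 566, while exp 1 had 299 and exp 2 had 281. Terminator peaks that also carried a promoter class were left out by the rule and numbered 189, 112, 56 and 49.

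All libraries came from PC-9, a long-established line of human lung adenocarcinoma cells. DRIP-seq pulls down sonicated genomic DNA with S9.6, an antibody against RNA:DNA hybrids. The control group had 2 libraries without further description, the exp group had 2 libraries that the design text ties to knockdown of FANCI, a Fanconi anaemia protein that works with FANCD2 in crosslink repair, and 1 input library made without antibody was shared by both groups. The labels give neither the knockdown reagent nor its time, and no RNA was measured, so the level of FANCI was not checked. They also do not say whether the 2 libraries of a group came from separate cultures, and the spread between them may be technical. DRIP reads counted over each library's own peaks ranged from 646455 in exp 2 to 1266127 in control 1. Intervals given for shares cover counting error only.

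An R-loop forms when a new transcript pairs again with its template strand and leaves the other DNA strand single. At the ends of genes, R-loops are known from regions past the polyadenylation signal, where RNA polymerase pauses before release. The helicase senataxin resolves such hybrids, and the exonuclease XRN2 then degrades the RNA left after cleavage. A transcript rich in G over a C-rich template forms a more stable hybrid, which is why the strand imbalance of G and C, the GC skew, is used to describe R-loop regions. Fanconi anaemia proteins, FANCI among them, are known to act where R-loops meet replication forks.

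The sequences below show what a strongly skewed terminator peak and a mildly skewed one look like, read on the plus strand from RefSeq promoter windows (GRCh38.p14) that fall inside terminator peaks of genes on that strand. These are the windows with the lowest and the highest skew among the 5 pairs of a terminator peak and an overlapping window. The first lies within the control 1 peak past the end of TSPAN17, a tetraspanin gene, in the 250 bases before the start of LOC124901144, at chr5:176659973-176660222. Its capitals mark ATCCATCC (3 matches that do not overlap), which 0.689% of 35116 RefSeq promoter windows hold on either strand. The second is the last 60 bases of the control 1 peak past the end of DNAH2, an axonemal dynein gene, upstream of KDM6B, at chr17:7833967-7834026. Its capitals mark GGG (4 matches), which 99.5% of the windows hold on either strand.
TSPAN17 terminator peak: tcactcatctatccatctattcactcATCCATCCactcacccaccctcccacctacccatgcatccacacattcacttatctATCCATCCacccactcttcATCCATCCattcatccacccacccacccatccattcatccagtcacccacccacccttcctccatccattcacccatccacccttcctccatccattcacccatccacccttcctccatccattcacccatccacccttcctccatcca
DNAH2 terminator peak: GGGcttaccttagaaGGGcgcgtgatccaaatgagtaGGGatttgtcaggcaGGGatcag
The TSPAN17 window held 130 C and 2 G on the coding strand, a skew of -0.97, where skew is the difference of G and C over their sum and runs from -1 to 1. The DNAH2 window held 22 G and 10 C, a skew of 0.38. Both control lists, but not those of the exp libraries, had a peak past TSPAN17. The control 1 peak held 38 DRIP and 7 input reads with a skew of -0.70, and the control 2 peak, which lay closer to the gene, held 26 DRIP and 6 input reads with a skew of 0.15.

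The exp libraries held 0.495 times as many terminator peaks as the controls by the authors' calls. The mean number was 586 ± 28.3 (SD, n = 2) in the controls and 290 ± 12.7 (SD, n = 2) in the exp libraries. The groups did not overlap, but with 2 libraries a group an exact two-sided permutation test cannot give a p below 0.333, and it gave p = 0.333 here. Other peaks were also fewer in the exp libraries: the ratio was 0.633 for all peaks, 0.569 for gene-body peaks of coding genes and 0.358 for their promoter peaks. Terminator peaks covered 329.01 and 327.787 kb in the controls against 169.117 and 153.787 kb in the exp libraries.

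Relative to all peaks, terminator peaks took 2.40% of control 1 (with a 95% Wilson interval from 2.22 to 2.59%) and 2.37% of control 2 (2.18 to 2.57%). They took 1.78% of exp 1 (1.59 to 1.99%) and 1.96% of exp 2 (1.74 to 2.20%). Both controls were above both exp libraries (exact permutation p = 0.333). Relative to peaks inside the same kind of gene the groups did not separate. There were 8.46 and 7.30 terminator peaks per 100 gene-body peaks in the controls against 6.18 and 7.70 in the exp libraries, so exp 2 lay between the controls (exact permutation p = 0.667). Against promoter peaks the order turned: 50.5 and 63.8 terminator peaks per 100 promoter peaks in the controls against 73.1 and 83.1 in the exp libraries (exact permutation p = 0.333).

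**Figure D1:**
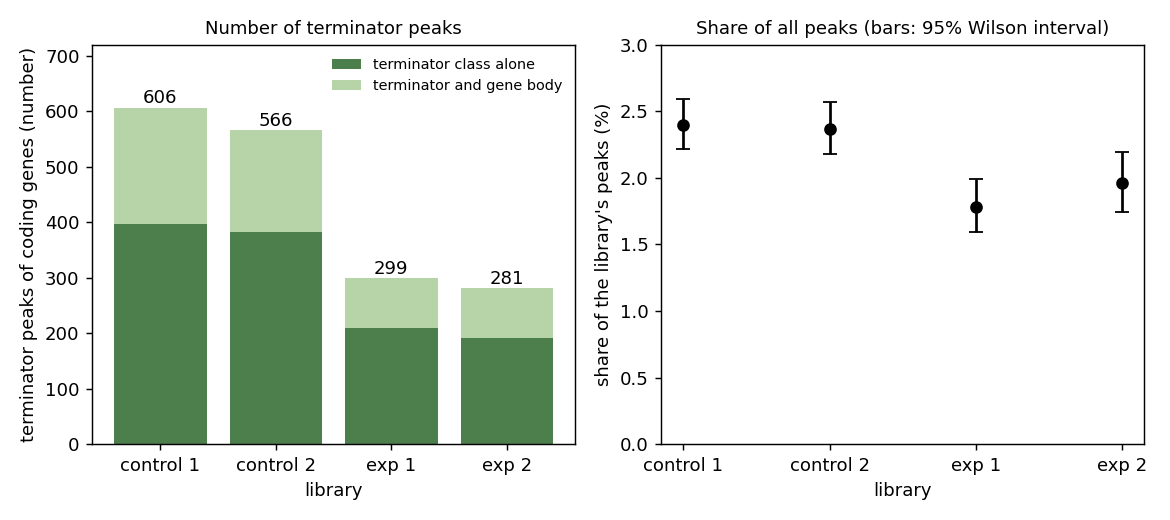
Number of terminator peaks of coding genes in each library (left, stacked by class) and their share of all the library's peaks in percent (right, points with 95% Wilson intervals). The exp libraries hold 299 and 281 peaks against 606 and 566 in the controls, and their shares of 1.78% and 1.96% lie below 2.40% and 2.37%.

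The width and read number of a median terminator peak overlapped between the groups. In width, it measured 442.5 and 479 bp in the controls against 446 and 451 bp in the exp libraries. A median peak held 32 and 30 DRIP reads in the controls, 30 and 27 in the exp libraries, and 6 or 7 input reads in each. The authors' fold enrichment over a local background had medians of 4.03 (control 1), 3.86 (control 2), 3.79 (exp 1) and 3.76 (exp 2), with both exp values below both controls (exact permutation p = 0.333). Terminator peaks rarely failed to exceed the input: 3, 2, 2 and 6 of them had no more DRIP than input reads, which is 0.495%, 0.353%, 0.669% and 2.14%, against 18.2%, 13.1%, 16.5% and 25.7% of all peaks. This comparison is of raw reads without scaling for depth. Summed over terminator peaks there were 4.51, 3.62, 3.92 and 3.11 DRIP reads per input read, close to the 4.51, 3.63, 3.84 and 3.19 of gene-body peaks. The mean difference to gene-body peaks was -0.01 ± 0.06 (SD, n = 4 libraries; exact sign-flip permutation p = 0.750).

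The class was checked against the position of gene ends in RefSeq (GRCh38.p14), since no source used here gives its boundaries. Symbols of 1676 of the 1752 peaks (95.7%) matched. Of 1156 matched peaks with the terminator class alone, 90.6% had their midpoint between 1 kb inside and 2.5 kb past the 3′ end of the gene, with a median of 896.5 bp past it. Peaks that carried the gene body class as well lay elsewhere: their median position was -1623 bp, inside the gene, and 188 of 520 (36.2%) lay more than 5 kb inside it. CDYL2, a chromodomain gene, holds both kinds, with peaks 951 to 1207 bp past its end and others at -144720 to -145997 bp, far inside it. The share of matched peaks past the 3′ end came to 56.5% and 58.9% in the controls against 59.5% and 56.0% in the exp libraries, with no separation of the groups (exact permutation p = 1).

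**Figure D2:**
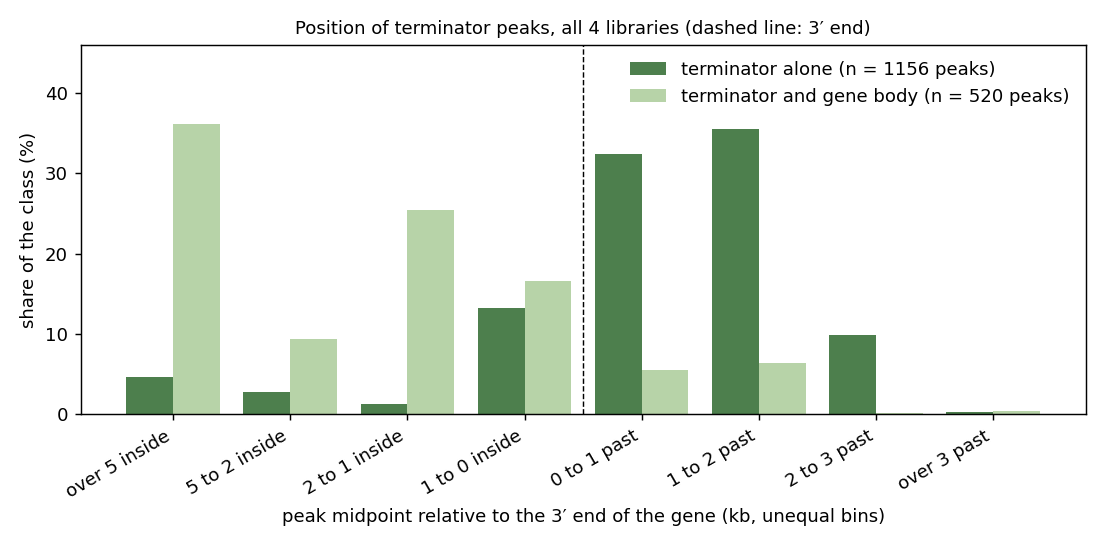
Share of each class in percent by the distance of the peak midpoint from the 3′ end of the assigned gene (kb, unequal bins, all 4 libraries pooled). Peaks with the terminator class alone collect within 2 kb past the end, whereas 36.2% of those that also carry the gene body class lie more than 5 kb inside.

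Genes with a terminator peak were short for coding genes: their median length was 18.8 kb against 26.6 kb for all coding genes and 59.0 kb for genes with a gene-body peak. Their median distance to the next coding gene was 15.4 kb against 21.1 kb for all, where neighbours that overlap the gene were left out. A next gene within 5 kb was not more common, at 21.2% against 23.4% for all coding genes. The next gene converged on genes with a terminator peak, tail to tail, in 44.3% of cases against 45.3% for all coding genes. Within the libraries the median gap was 14.5 and 13.7 kb in the controls against 18.1 and 17.7 kb in the exp libraries. Chromosome 19 held 16.3% of the genes with a terminator peak compared here, against 7.56% of all coding genes. The part of this in the lengths and distances was not tested. These are descriptions without a test.

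Chromosome 19 held more terminator peaks than any other chromosome, 335 of 1752 (19.1%), against 8.73% of gene-body peaks and 7.23% of coding genes. By library its share was 19.1%, 20.3%, 19.1% and 16.7% in control 1, control 2, exp 1 and exp 2. It exceeded the gene-body share in 4 of 4 libraries by a mean of 10.2 ± 1.39 percentage points (SD, n = 4), with an exact sign-flip permutation p of 0.125, the smallest that 4 libraries allow. At the level of genes, 210 of the 1451 coding genes of chromosome 19 (14.5%) had a terminator peak, against 5.69% of coding genes on other chromosomes. Chromosomes 22 (11.8%), 20 (9.68%) and 12 (9.28%) followed, while chromosome 18 had 1 such gene in 270 (0.370%).

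The distal end of chromosome 19, from 50 Mb on (a boundary set after the values were seen), stood out within it. There 80 of 291 coding genes (27.5%) had a terminator peak, against 130 of 1160 (11.2%) before 50 Mb. The input library was also deeper there: a median of 27.1 input reads per kb of terminator peak, against 12.9 on the rest of the chromosome and 13.8 on other chromosomes. The part of this difference in the higher number of peaks was not tested. Gene-body peaks shared the pattern in part, with 52.6% of distal genes against 35.9% of proximal ones holding one. DRIP reads per input read were 3.39 over distal terminator peaks and 4.84 over proximal ones.

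**Figure D3:**
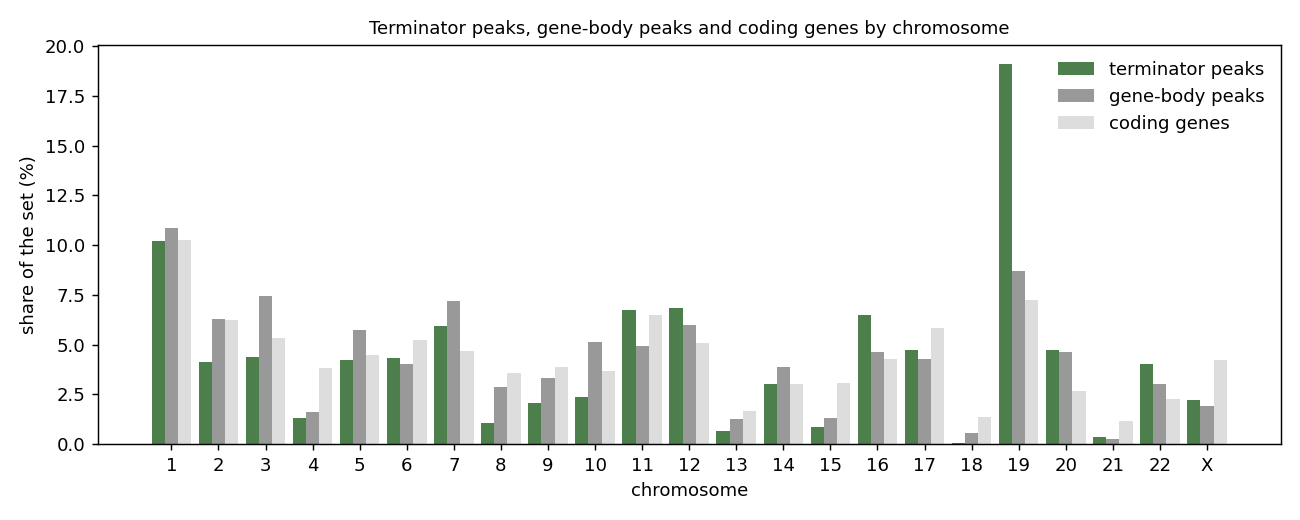
Share in percent of terminator peaks, gene-body peaks and coding genes that each chromosome holds, all 4 libraries pooled. Chromosome 19 carries 19.1% of terminator peaks but 8.73% of gene-body peaks and 7.23% of coding genes.

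Terminator peaks had no common direction of GC skew. Turned to the coding strand, the median skew lay at -0.02 and 0.00 in the controls against -0.02 and 0.01 in the exp libraries. Peaks with a skew of at least 0.5 on the coding strand numbered 31 and 17 in the controls against 19 and 15 in the exp libraries. Peaks at -0.5 or below numbered 48, 16, 16 and 11, so the C-rich side was the larger one in control 1 and the smaller one in the other 3 libraries. Strong skew of either sign was present in 13.0%, 5.83%, 11.7% and 9.25% of terminator peaks, and in 19.3%, 7.21%, 12.9% and 16.4% of gene-body peaks. It was less common at terminators in 4 of 4 libraries, by a mean of 4.02 ± 3.16 percentage points (SD, n = 4; exact sign-flip permutation p = 0.125).

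To compare libraries place by place, peaks that share at least 1 bp were merged into regions. Of 1376 regions with a terminator peak, 1076 (78.2%) were held by 1 library alone, against 77.6% of all regions and 82.5% of gene-body regions. Both controls and neither exp library held 71 (5.16%), where 3.83% of all 58639 regions did. Both exp libraries and neither control held 18 (1.31%), against 1.3% of all regions. All 4 libraries held 39 (2.83%), against 3.17% of all regions. The shares for exp-only and shared regions were thus near those of all regions. When the same number of best peaks by p was taken from each library, control-only terminator regions numbered 40 and exp-only ones 19. At −log10 q of at least 2, exp-only and shared terminator regions numbered 9 and 25. These recounts were not made for all regions, so they cannot show whether terminator regions differ from others. Of the control-only regions 65 of 71 were terminator peaks in both controls, as were 16 of the 18 exp-only regions in both exp libraries, while 25 of the 39 shared regions were terminator peaks in every library. Counted by gene, 74 of 1268 genes (5.84%) had terminator peaks in the pair of controls alone. For coding genes with a peak of any class, 8.86% of 8732 were held in that way. These bases are unlike: 45.1% of coding genes with any peak were held by 1 library, against 76.1% of genes with a terminator peak. In the other direction there were 18 genes (1.42%), against 1.29%. An exp peak of another class was present in 30 of the 74 genes, and a control peak of another class in 10 of the 18.

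Strong skew went with recurrence, a comparison that was added after the data had been seen. Among terminator peaks of regions held by 1 library, 8.65%, 1.12%, 4.29% and 0.714% had a skew of at least 0.5 in either direction in control 1, control 2, exp 1 and exp 2. In regions held by all 4 libraries the shares were 37.1%, 44.1%, 43.3% and 37.1%. The latter was higher in 4 of 4 libraries, by 36.7 ± 6.13 percentage points (SD, n = 4, exact sign-flip permutation p = 0.125). Regions of all 4 libraries are the same places in each library, and skew follows the sequence there. The 4 values are thus not independent, and neither the SD nor the p measures the spread over separate places. Shared regions also had wider and deeper peaks, with medians of 671, 703, 770 and 693 bp and 75, 55, 58.5 and 48 DRIP reads, against 396.5, 466, 417 and 413.5 bp and 29, 26, 27 and 23.5 DRIP reads in regions of 1 library. Median input reads were 15, 15, 17 and 12 in shared regions and 6, 7, 5 and 7 in regions of 1 library. The part of width and depth in the skew difference was not tested. Gene-body peaks had the same order with higher shares, 55.5%, 51.6%, 55.3% and 53.3% in regions of all 4 libraries.

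**Figure D4:**
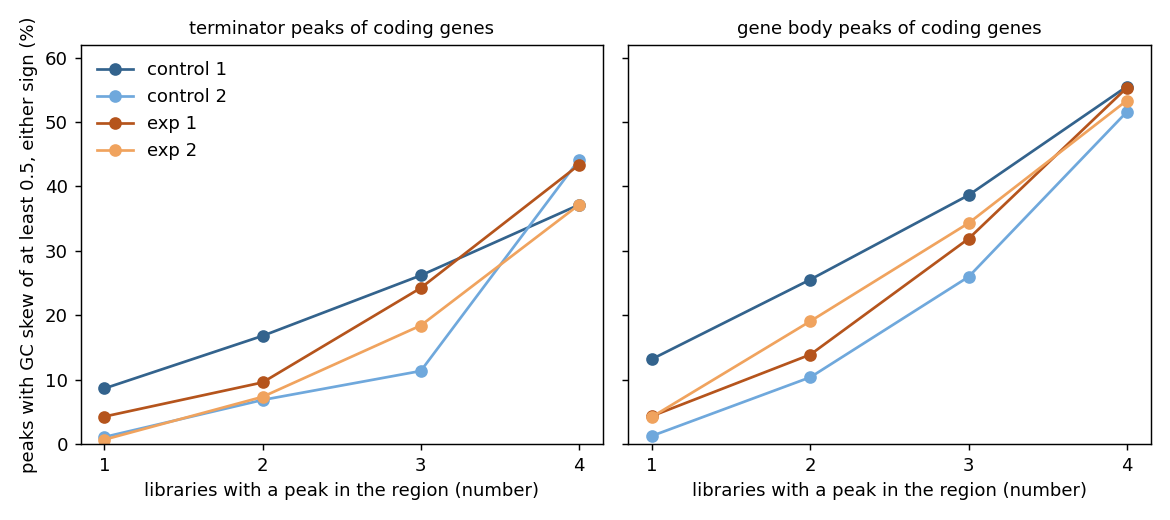
Share of peaks in percent with a GC skew of at least 0.5 in either direction, by the number of libraries that hold the region, 1 line per library, for terminator peaks (left) and gene-body peaks (right) of coding genes. At terminators it is between 0.714% and 8.65% in regions of 1 library and between 37.1% and 44.1% in regions of all 4.

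Of the 39 shared regions, 13 were strongly skewed in every terminator peak. On the coding strand 8 were G-rich: APLNR (the apelin receptor), C10orf99, CAV1 (caveolin 1), ELAVL3 (a neuronal RNA-binding protein), MGLL (monoacylglycerol lipase), RAB7B (a small GTPase of endosomes), SEMG1 (semenogelin 1) and SPAAR (a small polypeptide that restrains mTORC1). The other 5 were C-rich: ADIG (adipogenin), CRYAA2 (a crystallin copy), SLC12A7 (a potassium chloride cotransporter), SLC27A5 (a bile acid CoA ligase) and USB1 (an exonuclease that trims U6 RNA). SLC27A5 was counted by 1 terminator peak, in control 2, with a skew of -0.53. Those outside the naming rule were named after their values were seen. The highest fold enrichment of any terminator peak, 17.3, was at CRYAA2 in control 1. The CRYAA2 peak of control 2 had 8.08, that of exp 1 had 8.69 and that of exp 2 had 4.29. Its 4 peaks held 152, 75, 77 and 48 DRIP reads and 18, 17, 14 and 11 input reads, in that order. CRYAA2 is a gene copy, so its reads may be shared with the other copy, and these values are uncertain.

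Among regions shared by all 4 libraries, ranked by the weakest library's −log10 q (q being the authors' adjusted p of a peak), the region at SPAAR was first. It lies at chr9:35913334-35914366 on GRCh38, with midpoints 2158 to 2265 bp past the 3′ end of the gene. The peaks held 280 and 188 DRIP reads in the controls against 172 and 221 in the exp libraries, over 68, 66, 62 and 62 input reads. The skew was 0.84 or 0.85 in each library. DRIP reads per kb of peak were 274 and 207 in the controls against 225 and 266 in the exp libraries, so that the groups overlapped.

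NBPF26, a member of the neuroblastoma breakpoint family on chromosome 1, was second. Its peak was 7928 to 8237 bp wide, with 445 and 362 DRIP reads in the controls against 325 and 308 in the exp libraries. It held nearly as much input, 292, 300, 292 and 291 reads. This family has near-identical copies and its reads may be shared among them, so the value is uncertain.

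The third region, at SLC12A7 (chr5:1041013-1048817), was called as a single peak of 7805 bp with 1104 DRIP and 184 input reads in control 1. Control 2 had 4 peaks there with 466 DRIP reads over 5057 bp in all, exp 1 had 2 with 461 reads over 5882 bp and exp 2 had 3 with 490 reads over 6570 bp. DRIP reads per input read were 6.00 in control 1 and 3.64, 3.41 and 2.97 in control 2, exp 1 and exp 2. Control 1 alone was high, and control 2 was close to the exp libraries. No peak of control 2 there carried the terminator class, because they were classed as intergenic.

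ZNF579, a zinc finger gene on distal chromosome 19, was also in the ranked set and shared the largest number of terminator peaks of any gene with NDUFA3 (7 each). The ranked region, with terminator peaks 2230 and 2299 bp past the end, held 62 and 102 DRIP reads in the controls against 69 and 80 in the exp libraries. The control 1 and exp 1 peaks there were classed as intergenic. A nearer region, 468 to 974 bp past the end, held 33, 46, 66 and 41. NDUFA3, a subunit of respiratory complex I also on distal chromosome 19, had 3 terminator peaks in control 1, 2 in control 2 and 1 in each exp library. At the NDUFA3 region that all libraries shared, 55, 32, 34 and 30 DRIP reads were counted. CDYL2 and U2AF2, with 6 terminator peaks each, were next in number, and CDYL2 had none in exp 1.

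RAB7B, the USP17L cluster and SLC27A5 were in the ranked set as well. At RAB7B (chr1:205972715-205975359) the libraries held 202, 90, 121 and 127 DRIP reads over 2496, 1187, 1757 and 1583 bp. The skew of its terminator peaks was 0.85 to 0.87. USP17L genes are tandem deubiquitinase copies on chromosome 4, and over that region DRIP reads were 152, 587, 444 and 366 while input reads were 101, 568, 412 and 381. These copies are near-identical, so reads cannot be placed with certainty. The region of SLC27A5 was assigned to it as a terminator in control 2 alone, and to AC012313.9 on the opposite strand in the other 3 libraries, where the peaks were G-rich on that gene's strand (skew of 0.74, 0.87 and 0.79).

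The 8 strongest control-only regions were at PRPF31, NRSN2, PLBD2, ANAPC7, SBK1, BATF, MCF2L2 and ABHD10. PRPF31, a splicing factor of the tri-snRNP, led: its control 1 peak held 269 DRIP reads over 36 of input, and its control 2 peak 239 over 42. Its fold enrichments were 7.70 and 8.65 and its skew -0.90 and -0.78. The control 1 peak there was classed as intergenic. This was a deep region in both controls, and neither exp list has a peak there.

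NRSN2, a vesicle membrane protein gene, had 63 and 38 DRIP reads with fold enrichments of 5.90 and 5.45. PLBD2, a lysosomal phospholipase-like gene, had 47 and 29 reads and the strongest skew of the set, -0.95 and -0.94. At ANAPC7, a subunit of the anaphase-promoting complex, 28 and 35 reads were counted.

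SBK1, a kinase gene, had 41 and 31 DRIP reads over 1 input read in each. BATF, an AP-1 family factor of lymphocytes, had 73 and 49. MCF2L2, a guanine nucleotide exchange factor gene, had 33 and 49, and ABHD10, a hydrolase gene, had 74 and 71. The lists hold no reads of the exp libraries at these places, so no fold between the groups can be given. A peak missing from a list may still hold reads below the caller's threshold.

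The 6 strongest exp-only regions were at ZNF70, HNRNPA1P48, GPR42, ACTG1, DGKH and SP1. The −log10 q of the weaker library had a median of 1.82 over the 18 exp-only regions and of 2.17 over the 71 control-only ones. ZNF70, a zinc finger gene, had 41 and 37 DRIP reads and fold enrichments of 4.99 and 6.07. HNRNPA1P48 had 64 and 67 reads, and GPR42, a close copy of a free fatty acid receptor, had 45 and 29. HNRNPA1P48 carries the symbol of a pseudogene, so reads at both places may be shared with other copies.

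ACTG1, which encodes gamma-actin, had 67 and 54 DRIP reads at 493 and 370 bp inside its 3′ end. DGKH, a diacylglycerol kinase gene, had 34 and 29 reads far inside the gene, and SP1, a zinc finger transcription factor gene, had 20 and 22 reads 1888 and 2114 bp past its end. A terminator peak with a skew of 0.5 or more in either direction was present in 0 of the 18 exp-only regions. It was present in 13 of the 71 control-only ones (18.3%). A count of 0 in 18 still allows a share of up to about 16.7%, a rough bound of 3 regions. This bound lies a little below 18.3%, and 18 regions are too few to decide whether the sets differ. These are descriptions without a test.

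ACTB, which encodes beta-actin and is a common R-loop test locus, had a terminator peak in all 4 libraries. In the controls the peak at the 3′ end was 465 and 478 bp wide with 124 and 115 DRIP reads, and control 1 had a second peak of 1304 bp with 99 reads farther inside the gene. In the exp libraries a single peak of 2187 and 2154 bp covered the same stretch and held 313 and 372 DRIP reads. Over each library's own peaks, which covered 1769 and 478 bp in the controls, DRIP reads per input read were 3.23 and 2.95 in the controls against 4.29 and 5.10 in the exp libraries. Per kb of peak there were 126 and 241 DRIP reads in the controls against 143 and 173, so that the groups overlapped by this measure. ACTB and ACTG1 have processed pseudogenes, and no source used here says how the authors handled reads with several matches.

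Of 18 R-loop test loci, 5 had a terminator peak in some library, ACTB and BTBD19 among them, against 6.32% of all 20056 coding genes. BTBD19, whose locus is used as a positive control, had 34 DRIP reads in control 1 and 27 in exp 1 with 0 input reads in both. None of the 5 was control-only or exp-only. Of 39 cleavage, polyadenylation and termination factors, 3 had a terminator peak (CSTF3, SYMPK and ZC3H4), each in control 2 alone. Of 33 R-loop processing factors 1 did, RNASEH2A, in exp 2.

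Among 35 Fanconi anaemia and crosslink repair genes, FAAP24 and DCLRE1B had a terminator peak (5.71%), near the 6.32% of all coding genes. DCLRE1B, the nuclease Apollo, had no terminator peak in control 1, while its peaks held 36 DRIP reads in control 2 and 61 and 40 in the exp libraries. Its fold enrichments were 3.17, 2.77 and 4.74. Among 41 immediate early and stress genes, 5 had a terminator peak (12.2%, against 6.32% of all coding genes): DUSP1, DUSP4, FOS, JUND and SERTAD1. The FOS region, with midpoints 2212 to 2264 bp past the gene in the first 3 libraries, held 67, 55, 50 and 71 DRIP reads, and the exp 2 peak there was classed as intergenic.

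Of 33 lung epithelial lineage genes, 5 had a terminator peak, and MUC5AC and SCGB1A1 were 2 of them. CAV1, an alveolar type I marker, had fold enrichments of 2.80 and 3.49 in the controls against 5.19 and 4.14 in the exp libraries. DRIP reads at CAV1 were 44, 36, 40 and 33, and input reads 9, 9, 5 and 8. AGER, another type I marker, had 27 reads in control 1 and 23 in control 2, at different places of the gene, and no exp terminator peak. SFTPB, surfactant protein B, had 25 reads in control 2 and 23 in exp 2. No member of a list of 45 epithelial, adhesion and mesenchymal genes had a terminator peak, and 2 of 45 lung adenocarcinoma drivers did, where the share over all coding genes was 6.32%.

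Of the larger families, where the share over all coding genes was 6.32%, a terminator peak was present in 36 of 386 solute carrier genes (9.33%), 33 of 517 ZNF genes (6.38%), 6 of 84 cytosolic ribosomal protein genes (7.14%), 5 of 56 cytochrome P450 genes (8.93%) and 7 of 392 odorant receptor genes (1.79%). Of the solute carriers 4 were control-only and 1 exp-only, and of the ZNF genes 3 and 2. Over all 1268 genes with a terminator peak the shares were 5.84% and 1.42%. SLC38A10 had 58 DRIP reads in control 1, 33 in exp 1 and 26 in exp 2. Its skew was 0.71 to 0.92. SLC35F3 had 48 in control 1 and 41 in exp 1, and SLC15A1, the intestinal peptide transporter, had 30 in control 1 and 35 in control 2 at the region that both controls held.

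ZNF611 and ZNF786 had terminator peaks in control 2 and both exp libraries but not in control 1. At the ZNF611 region shared by control 2 and exp 2, 38 DRIP reads were counted in each. For ZNF786 these were 27 and 19. RPS14, a protein of the small ribosomal subunit, had 42 and 25 reads in the controls and no exp peak. CYP2F1, a lung P450, had 49 reads in control 2 and 34 in exp 1 at a shared region. Among odorant receptors, OR2AK2 had 36, 48 and 27 reads in control 2, exp 1 and exp 2, OR4Q3 had 32 and 42 in control 2 and exp 1, and OR10V1 had 17 in both of these.

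Of the remaining lists, replication-dependent histone genes had 3 of 70 members (4.29%), keratin-associated proteins 3 of 94 (3.19%) and collagens 3 of 44 (6.82%). Protocadherins had 1 of 66 (1.52%) and mucins 1 of 18 (5.56%). The share over all coding genes was 6.32%. The 3 histone genes, H3C12, H3C14 and H3C15, had their peaks in control 1 alone.

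Where each library had exactly 1 peak in a region, DRIP counts could be tested between the groups with the width of each library's own peak as an offset. This applied to 1370 regions, 27 of them with a terminator peak. With edgeR's quasi-likelihood test and Benjamini-Hochberg adjustment over the 1370 regions, 0 regions passed an adjusted p of 0.05 (0% of those tested), while 98 had an unadjusted p under 0.05. DESeq2 also called 0, with 21 at an unadjusted p under 0.05. The 27 terminator regions had a median log2 ratio of exp over control of 0.05, against 0.01 for all regions tested, and 15 were above 0. These regions had to be called in every library, so places lost from a library cannot enter the test.

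The lowest unadjusted p among terminator regions were at NPIPB5 and C10orf99, singled out after their values were seen. NPIPB5, a member of the nuclear pore interacting protein family with near-identical copies on chromosome 16, held 98, 80, 45 and 32 DRIP reads and 61, 53, 39 and 39 input reads. Per kb of peak the DRIP reads were 56.0, 52.0, 36.1 and 29.2, without scaling for library depth. The groups did not overlap, but NPIPB5 was not alone in this. Both controls also lay above both exp libraries at NBPF26, C10orf99, FOS, KLK12, NDUFA3, SBK2, U2AF2 and the nearer ZNF579 region. At the rest of the 27 regions the groups overlapped. These are the same unscaled values, and the controls had more DRIP reads over their peaks. In the edgeR fit, which scales for depth, 15 of the 27 log2 ratios were above 0. How many of all 1370 regions separate in this way was not counted. The log2 ratio at NPIPB5 was -0.56 ± 0.26 (SE), with an adjusted p of 0.615 in edgeR's quasi-likelihood test. At C10orf99, a gene whose product is a ligand of GPR15, DRIP reads per kb were 90.4 and 71.9 in the controls against 37.6 and 57.5 in the exp libraries. Its log2 ratio was -0.59 ± 0.28 (SE), with an adjusted p of 0.639 in the same edgeR test.

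Other named regions in the same edgeR test were nearer to 0. The log2 ratio was 0.21 ± 0.19 (SE) at SPAAR, -0.15 ± 0.19 at NBPF26, 0.37 ± 0.30 at CAV1 and -0.23 ± 0.25 at FOS. The adjusted p from edgeR was 0.953, 0.970, 0.942 and 0.970. In simulated data of the same 1370 regions, 77% of regions changed by 2-fold and 97% of those changed by 4-fold were recovered. The simulation used a common dispersion and kept peak widths fixed, whereas real widths come from the calls themselves. Recovery was not counted for terminator regions alone, so these figures may not hold for them.

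**Figure D5:**
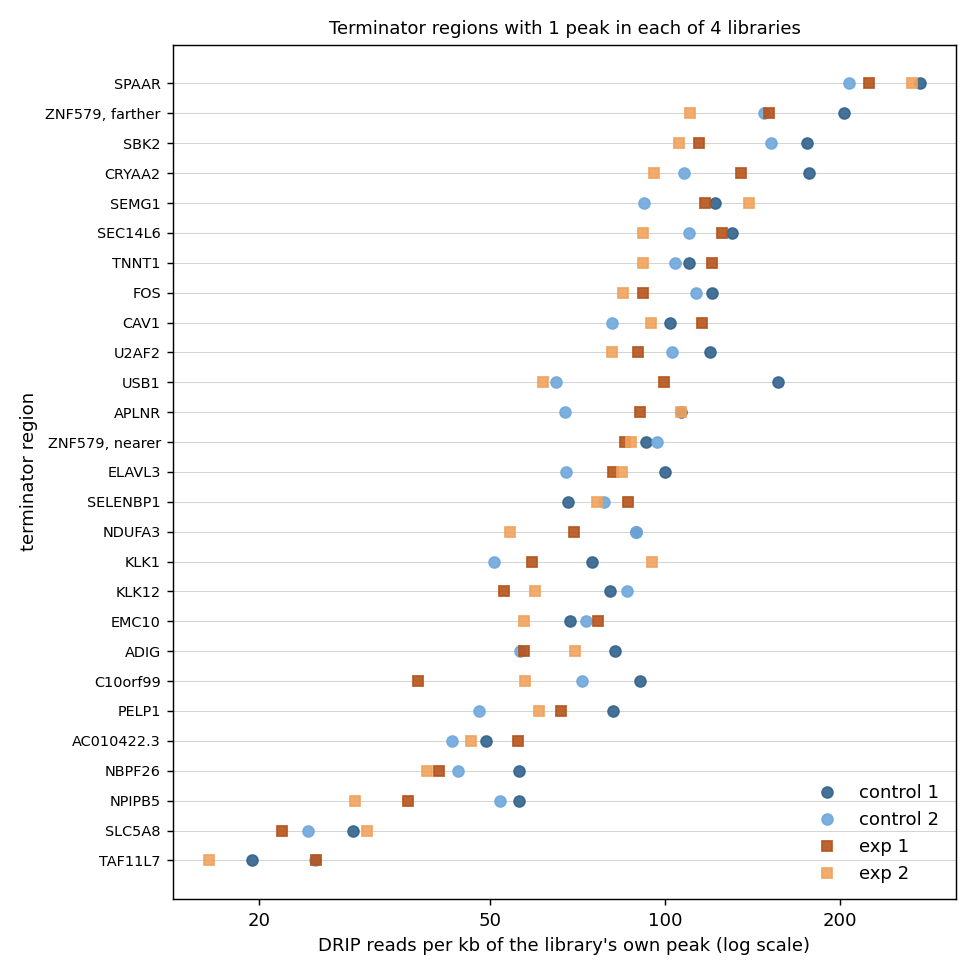
DRIP reads per kb of the library's own peak (log scale) at the 27 terminator regions with 1 peak in each library, ordered by their mean (circles for controls, squares for exp libraries; the 2 regions of ZNF579 are named by their distance past the gene). Controls and exp libraries are mixed at most regions, and SPAAR is the highest with 207 to 274 reads per kb.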

How the data were processed

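Each of the 4 DRIP libraries has its own deposited peak list, with no pooling. The build was GRCh38 (hg38), and reads went through FastQC, cutadapt, Bowtie2, MACS2 and DiffBind, per the submitters' processing notes. Their versions and settings, and the class boundaries, were not given in the sources used here. Per the file headers, the lists hold whole-number read counts of the DRIP and input libraries over each peak, without normalization, a fold enrichment ratio over a local Poisson background, and a GC skew score. The deposited −log10 p-value and q-value columns were read as plain −log10, since the smallest p entry was 3 in each list, although the file headers describe a further multiplier. If that multiplier holds, each −log10 q printed, and the cutoff of 2, stands for a weaker q. Peak width and position are also from the deposited files. Skew was taken as the reference strand's, because it followed RefSeq window sequence on genes of both strands (r = 0.873 over 103 peaks and r = 0.886 over 128), and was turned by transcript direction.

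Sample titles gave the groups and the replicate numbers. Members and 18 gene lists were chosen with earlier results of these data known. Values per library were compared by exact two-sided permutation, shares of a library by an exact sign-flip permutation over 4 libraries. Peaks sharing at least 1 bp were merged. Regions with 1 peak per library were tested with edgeR 4.0.16 (quasi-likelihood, width offset, TMM factors from width-scaled counts), with DESeq2 1.42.0 as the alternative, in R 4.3.3, and tested on simulated data. Named genes followed a fixed rule: the 8 strongest regions in all 4 libraries, the 8 control-only and 6 exp-only ones by the lower −log10 q, up to 4 members per list with a terminator peak in at least 2 libraries, and the 3 genes with the most peaks. List members named without values fall outside it, and some genes that it takes are not reported here. Library totals were not used. The spike-in and IgG aliquots that the protocol describes were not analysed here.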

Additional observations from a re-analysis of the deposited data

How the results depend on the processing

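The exp over control ratio of the number of terminator peaks stayed below 1 under every alternative, from 0.430 to 0.725, and the share of all peaks was lower in the exp libraries under each. The highest ratio, 0.725 (means of 378 and 274 peaks), came from taking the same number of best peaks by p from each library. None of the single values per library could pass a threshold at 2 libraries a group. Differences near 0 changed sign: the median width ratio of 0.973 became 1.01 with −log10 q of at least 2, and leaving out 1 library gave 0.936 to 1.01. For the median skew (difference 0.0049) leaving out 1 library gave -0.0078 to 0.0176, with -0.0064 without control 1, and for the share past the 3′ end (0.06 points) it gave -1.71 to 1.83 points, with -1.15 without control 1. Counts of regions depended most on the calls, and they were recounted for terminator regions and genes only. With the same number of best peaks per library, control-only regions fell to 40 and control-only genes to 39. At −log10 q of at least 2, exp-only regions and genes were 9 each and shared regions 25, and shared regions were 25 as well when presence was judged by terminator peaks only. Leaving out 1 library, where 1 library then stands for its group, gave 84 to 486 control-only and 27 to 180 exp-only regions, 46 to 59 shared regions, and 93 to 442 control-only and 29 to 163 exp-only genes. In the edgeR count test, calls ranged from 0 to 3 when 1 library was left out (3 without exp 1, none at a terminator). The log2 ratio at FOS was 0.28 without the width offset, and that at SPAAR went from -0.0057 to 0.40 when 1 library was left out, the former without exp 2. The replicate numbers did not pair the libraries (r = -0.07 between deviations of libraries with the same number), and with the replicate block 0 regions passed, 69 of them at an unadjusted p under 0.05. The cause of these changes was not tested. A median terminator peak held about 30 DRIP reads, which limits the precision of single peaks.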
